A study of Rattus norvegicus with 50 samples.

Results

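In kidney cortex of obese ZSF1 rats, 189 gene IDs had their lowest values under the higher dose of MK-8722. The IDs were chosen by their FPKM values in that tissue: an ID was taken when its highest value in the 5 libraries of obese rats given MK-8722 at 10 mpk lay below its lowest value in all 15 other obese cortex libraries. Those 15 were 5 libraries each of obese rats on vehicle, on enalapril (10 mpk) and on the lower dose of MK-8722 (1 mpk). The mean in obese vehicle cortex also had to be at least 1 FPKM, a count of sequenced fragments corrected for transcript length and library size. One ID, ENSRNOG00000013062, was to be left out in advance, and it did not meet the rule in any case. The 189 IDs were 1.45% of the 13070 IDs with that level minimum, in a table of 32545 IDs. Because the 20 obese cortex libraries chose the IDs, every value from them is a description and none was tested.

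The study measured total RNA, freed of ribosomal RNA and sequenced with strand kept, from cortex and medulla of the kidney. All rats were of the ZSF1 strain. The labels give every sample 28 weeks of treatment and also an age of 20 weeks; both cannot hold at tissue collection, and the age was not used. In each tissue there were 5 libraries of lean rats on vehicle, of obese rats on vehicle, of obese rats on enalapril at 10 mpk, and of obese rats on MK-8722 at 1 mpk and at 10 mpk, where mpk is the dose unit of the labels. Lean rats were given vehicle only, so every treated library came from an obese rat. Which libraries share an animal is not stated, and the p-values reflect only library-to-library spread.

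AMP-activated protein kinase (AMPK) is the energy sensor of the cell: when ATP runs low it slows the synthesis of lipids and other costly products and favours the breakdown of fuel. MK-8722 is a direct activator of all AMPK complexes, and enalapril inhibits angiotensin-converting enzyme and so lowers angiotensin II, which constricts the vessels that leave the glomerulus. The obese ZSF1 rat lacks a working leptin receptor and develops diabetes, high blood pressure and progressive kidney disease, whereas lean rats of the strain have a working receptor. The cortex holds the glomeruli and most of the proximal tubules, and the medulla holds the loops of Henle and the collecting ducts.

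Gene names do not accompany the IDs in the table, and a search of the RefSeq gene table matched 0 of the 32545 IDs. The roles of the 189 genes, lists of pathway genes and of cell type markers, a marker check of the labelled tissues, and sequences are therefore not given, and no name was inferred. In these bulk samples, fewer cells of a type and less RNA per cell cannot be told apart.

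The 189 IDs covered low and high expression. Their mean in obese vehicle cortex ran from 1.19 to 2700 FPKM with a median of 24.9, against a median of 8.57 over the 13070 IDs with the same level minimum. Of the 189, 24 had a mean of at least 100 FPKM, 129 lay between 10 and 100, and 36 between 1 and 10. At MK-8722 10 mpk the median was 17.9 FPKM.

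Most members were lower by a modest factor. The ratio of the mean at MK-8722 10 mpk to the mean in obese vehicle had a median of 0.735 and ran from 0.196 to 0.872. It was under 0.5 in 12 members, between 0.5 and 0.75 in 105 and at least 0.75 in 72. On the log2(FPKM + 0.5) scale, used for all log2 differences here and understating changes of low genes, the median difference was -0.44 and the range -1.83 to -0.20. Over all 13070 IDs the median difference was -0.20, so the typical ID was also lower at this dose on the deposited scale.

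The gap that separates the groups was small for most IDs. The lowest of the 15 values was at least 10% above the highest of the 5 in 30 members, and at least 25% above it in 5. Just inside the rule lay ENSRNOG00000011175, whose highest value at 10 mpk was 64.7396 FPKM and whose lowest value among the other 15 was 64.7455 FPKM. Just outside lay ENSRNOG00000046705, with 122.338 FPKM and 122.317 FPKM in the same order. Membership near the threshold thus turned on very small differences between single libraries.

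**Figure D1:**
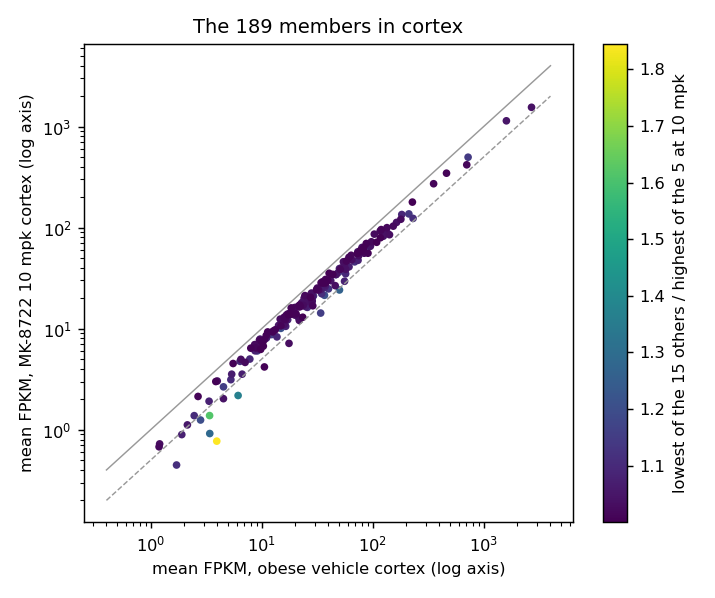
Mean FPKM at MK-8722 10 mpk against mean FPKM in obese vehicle, in cortex and on log axes, 1 point per member, coloured by the lowest of the 15 other obese values over the highest of the 5 at 10 mpk. The solid line marks equal means, the dashed line a ratio of 0.5, and 12 of the 189 points lie under the dashed line.

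Single libraries often set both edges. Replicate 2 of the MK-8722 10 mpk group held the highest of the 5 values in 72 members, replicate 4 in 55, replicate 7 in 31, replicate 6 in 20 and replicate 5 in 11. The lowest of the other 15 values came from the MK-8722 1 mpk group in 103 members, 43 of them from its replicate 7. Enalapril libraries held the lowest value in 59 members and obese vehicle libraries in 27. Leaving out replicate 2 of the 10 mpk group, 450 IDs met the rule, and leaving out any other single library gave 189 to 244.

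The size of the list depended on how libraries were scaled. Relative depth, recovered from the steps between low values, was 1.34 ± 0.193 in the cortex libraries at 10 mpk and 1.02 ± 0.211 in those of obese vehicle (SD, n = 5). After each library was rescaled by its median ratio to the geometric mean over IDs, 40 IDs met the rule. Of these, 26 were among the 189, which is 13.8%. The mirrored rule, all 5 values at 10 mpk above the other 15, held for 69 IDs on the deposited values and for 147 after rescaling. The label of the 189 as lowest at the higher dose thus holds on the deposited FPKM and for 26 of them on both scales.

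Library numbers fell into a lower and a separate higher range. The higher range held 3 of the 5 cortex libraries at 10 mpk, 3 of the 15 other obese cortex libraries and no medulla library. Without the 8 cortex libraries of the higher range, which leaves fewer libraries to separate, 586 IDs met the rule, all 189 among them. The part of library number and of depth in the cortex values was not tested.

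ENSRNOG00000001973 had 1 of the widest gaps on the log2 scale. In obese vehicle cortex it was measured at 2.72, 5.17, 2.83, 3.67 and 5.32 FPKM, under enalapril at 4.56, 2.65, 3.26, 5.14 and 3.42, and under MK-8722 1 mpk at 2.51, 3.25, 2.93, 2.37 and 3.53. At 10 mpk the values were 1.28, 0.819, 0.372, 0.328 and 1.05 FPKM, with a mean of 0.771 ± 0.419 against 3.94 ± 1.25 in obese vehicle (SD, n = 5). All 5 libraries at 10 mpk lay below every other obese library. Lean cortex was in between, at 2.38 ± 0.574 FPKM, and its 5 values of 1.51 to 2.86 FPKM were also above all 5 at 10 mpk.

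ENSRNOG00000005542 was the other ID with the widest gap. Obese vehicle cortex gave 3.39, 2.80, 3.14, 3.49 and 4.17 FPKM and MK-8722 10 mpk gave 1.57, 1.45, 1.22, 1.39 and 1.28 FPKM. The means were 3.40 ± 0.508 and 1.38 ± 0.138 FPKM, beside 4.44 ± 0.454 under enalapril, 3.25 ± 0.582 under MK-8722 1 mpk and 2.48 ± 0.232 in lean cortex (SD, n = 5). The libraries at 10 mpk were tight and the lean mean sat between theirs and those of the other obese groups.

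**Figure D2:**
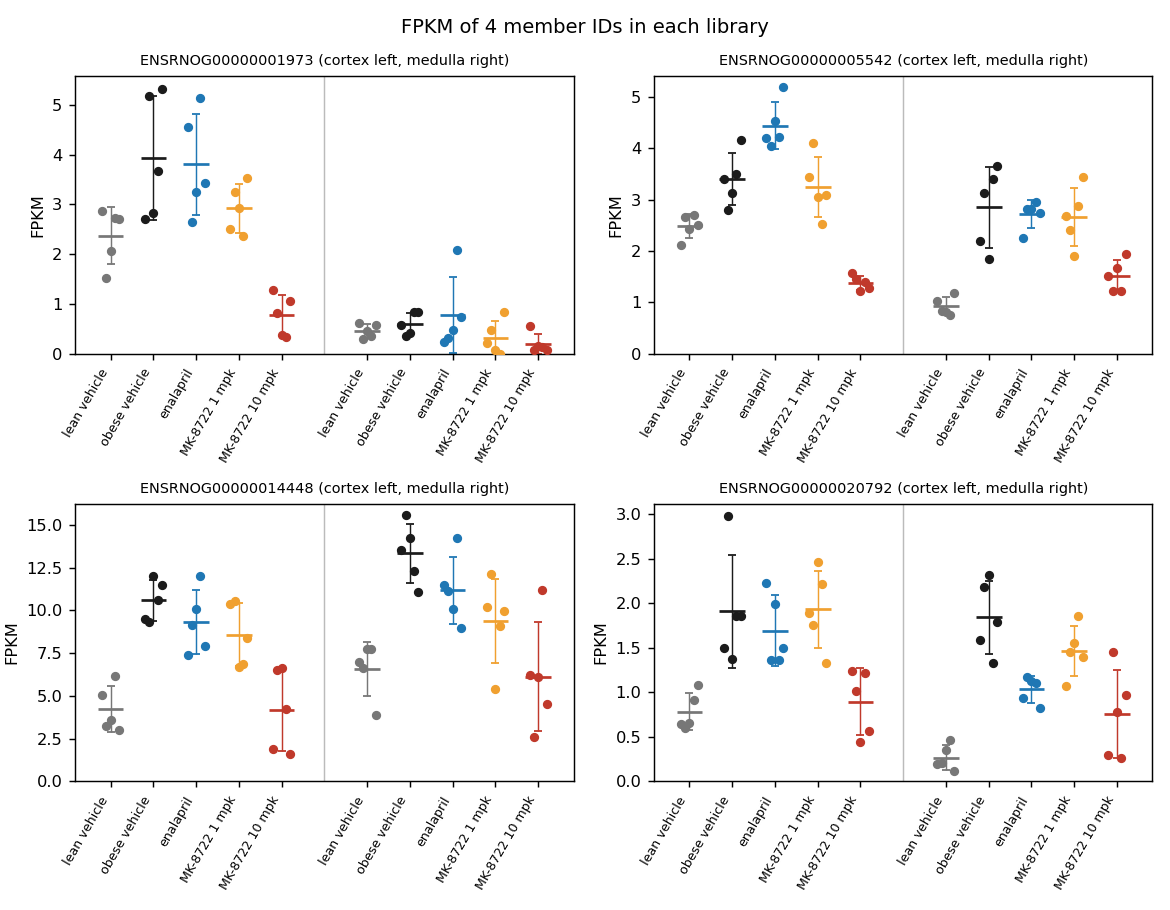
FPKM of 4 member IDs in each library of cortex and medulla, 1 point per library, with bars at the group mean and error bars of 1 SD (n = 5). In cortex the 5 points at MK-8722 10 mpk lie below all other obese points for each ID, whereas in medulla groups overlap to differing degrees.

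In cortex the members' differences from obese vehicle at the lower dose and under enalapril are given as a description. Their median log2 difference was -0.08 at MK-8722 1 mpk, beside a median over all IDs of 0.01. There 154 of 189 were below 0, or 81.5%, beside 46.0% of all IDs. Under enalapril the median was -0.07, beside -0.18 over all IDs, and 143 of 189 were below 0, or 75.7%, beside 83.5% of all IDs. These comparisons share the obese vehicle libraries.

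By library, the median member lay below its obese vehicle mean in all 5 cortex libraries at 10 mpk, by 0.36, 0.38, 0.53, 0.48 and 0.43 on the log2 scale for replicates 2, 4, 5, 6 and 7. The same median over all IDs was -0.07, -0.25, -0.34, -0.07 and -0.22 in those libraries. The members' median was therefore the lower of the pair in each, by 0.13 to 0.41. The rule chose the members by low values in these libraries, so this order is a description. As a group the difference between members and all IDs was -0.25 ± 0.11 at 10 mpk, -0.10 ± 0.07 at 1 mpk, 0.11 ± 0.05 under enalapril and 0.13 ± 0.02 in lean cortex (SD, n = 5).

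**Figure D3:**
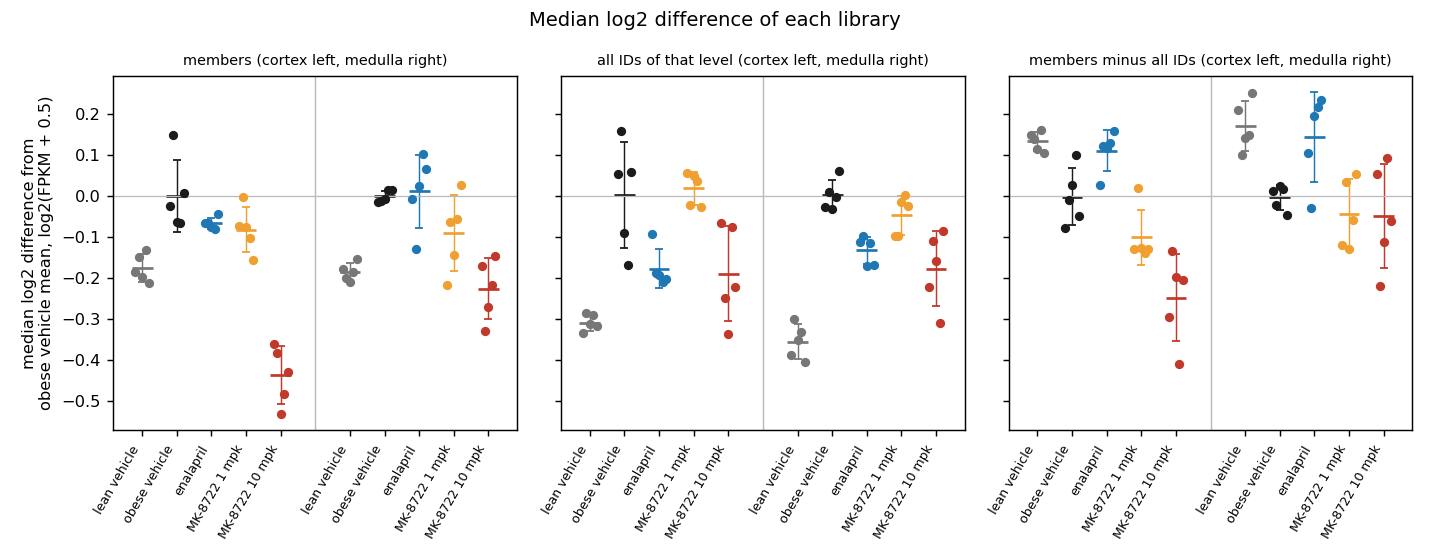
Median log2 difference from the obese vehicle mean of the same tissue, 1 point per library, over the members (left panel), over all IDs with the level minimum (middle) and as members minus all IDs (right), with bars at group means and error bars of 1 SD (n = 5). The members' medians at MK-8722 10 mpk were -0.44 ± 0.07 in cortex, where the rule chose them, and -0.23 ± 0.08 in medulla, where all IDs gave -0.18 ± 0.09.

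The summed FPKM of the members, as a share of all FPKM in a library is given next as a description. It was 1.68% ± 0.280 in obese vehicle cortex, 1.52% ± 0.0775 under enalapril, 1.46% ± 0.139 at MK-8722 1 mpk, 1.39% ± 0.0852 in lean cortex and 1.04% ± 0.117 at 10 mpk (SD, n = 5). In medulla the share was 1.06% ± 0.0217 in obese vehicle and 0.850% ± 0.0936 at 10 mpk, with 1.10% ± 0.152 under enalapril, 0.928% ± 0.133 at 1 mpk and 0.999% ± 0.0347 in lean rats.

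**Figure D4:**
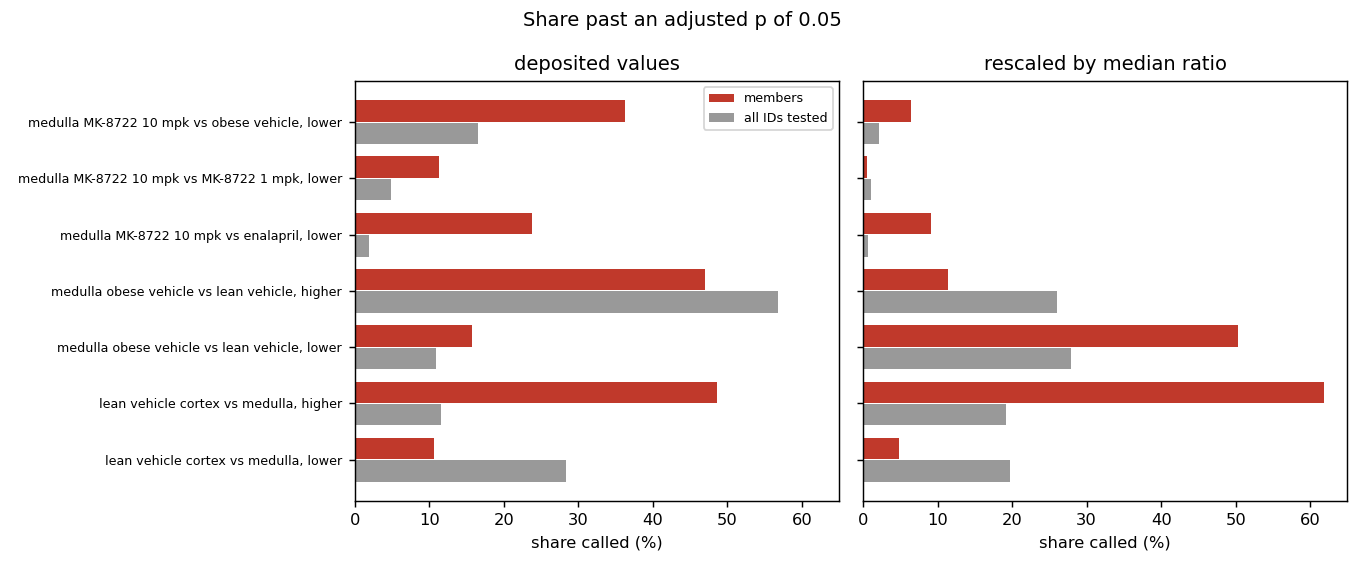
Shares in percent, with the measure and the groups as labelled on the axes. Error bars, where drawn, are 1 SD around the group mean (n = 5). For the members' share of summed FPKM given in the text above, the MK-8722 10 mpk group had the lowest mean in each tissue. In cortex the rule fixed the order of the summed FPKM against the other obese groups. It did not fix the order of the share of all FPKM, or any order against lean.

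On the deposited values, lean cortex, which the rule did not use, lay between obese vehicle and MK-8722 10 mpk for most members. The mean factor of the rescaling by median ratio was 0.875 in lean cortex, 1.13 in obese vehicle and 0.976 at 10 mpk. The place of lean cortex after rescaling was not examined, and it may differ. The median difference of lean from obese vehicle was -0.18, with a range of -1.59 to 1.04, while the median over all IDs was -0.31. Of the members 157 of 189 were below 0, or 83.1%, beside 82.0% of all IDs. All 5 lean values were below all 5 obese vehicle values in 60 members, or 31.7%, and the same held for 37.2% of all IDs; they were above all 5 in 2 members, beside 4.29%. The obese vehicle libraries took part in choosing the members, so nothing is read from the difference between these shares.

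Against the 10 mpk group, lean cortex was higher by a median of 0.26 on the log2 scale. It was higher in 169 members and lower in 20, or 10.6%, where 68.1% of all IDs were lower. All 5 lean values exceeded all 5 at 10 mpk in 96 members, or 50.8%, beside 7.47% of all IDs, and lay below them in 1 member, beside 18.7%. The obese side of this contrast chose the members, so nothing is read from the difference in shares. The lean values lay below all 15 other obese libraries in 36 members, against 19.6% of all IDs, and above all 15 in 2, against 2.75%.

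Members differed widely in how lean and obese cortex compared. ENSRNOG00000007060 was measured at 14.7, 14.8, 15.1, 15.3 and 13.9 FPKM in lean cortex and at 45.6, 59.0, 44.5, 35.6 and 45.3 FPKM in obese vehicle cortex, with 26.7 ± 4.97 FPKM at 10 mpk (SD, n = 5). ENSRNOG00000032246 went the other way, with 120 ± 12.1 FPKM in lean, 58.0 ± 4.44 in obese vehicle and 46.7 ± 2.36 at 10 mpk. For the first ID the 10 mpk group lay on the lean side of obese vehicle, and for the second it lay on the side away from lean.

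ENSRNOG00000011231 likewise had its highest mean in lean cortex, at 2.76 ± 0.514 FPKM, then 2.14 ± 0.601 under enalapril, 1.71 ± 0.513 in obese vehicle, 0.921 ± 0.183 at MK-8722 1 mpk and 0.448 ± 0.182 at 10 mpk (SD, n = 5). Its lean values of 2.21 to 3.58 FPKM overlapped the enalapril values of 1.36 to 2.93 FPKM and the obese vehicle values of 1.17 to 2.40 FPKM.

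Medulla libraries took no part in choosing the members, so differences there were tested. Some of them may come from the same rats as the cortex libraries, so the tests are not known to be independent of the choice. Of the 189 members, 185 had enough expression for the test, that is at least 1 FPKM in 5 or more of the 25 medulla libraries, and 180 had it in all 25. No member met the cortex rule in medulla, where 0.26% of all IDs did, and no member met the mirrored rule, where 0.176% did. In lean rats 48.7% of members were higher in cortex than in medulla, beside 11.5% of all IDs. How much cortex each medulla sample held is not known, and its part in the medulla differences below was not tested.

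The higher dose of MK-8722 went with lower values of many members in medulla too. Against obese vehicle, 67 of the 185 tested members fell and 0 rose at an adjusted p under 0.05 (limma, Benjamini-Hochberg over 14195 IDs), which is 36.2% of members. Over all IDs tested 16.5% fell and 1.6% rose, and over IDs with the members' cortex level minimum 17.6% fell. Neither background matched the members in level or spread. The median SD of log2 values in medulla was 0.170 for members and 0.219 for IDs with the level minimum at 10 mpk. In obese vehicle it was 0.116 and 0.164. A smaller spread lets a smaller difference pass, and its part in the shares of calls, here and in the comparisons below, was not tested. The median member difference was -0.23, with a range of -1.19 to 0.15, while the median over all IDs was -0.18. Of the members 181 of 185 were below 0, as were 82.7% of all IDs with the level minimum. Among the 67 called members the median was -0.37. By library, the members' median minus that of all IDs was -0.05 ± 0.13 at 10 mpk (SD, n = 5) and ran from -0.22 to 0.09, so the typical member was not set apart from the typical ID in each library.

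Most of these medulla calls depended on the scale. After rescaling, which moved the median of all IDs to -0.01, 12 members fell, or 6.49%, and 0 rose, where 2.08% of all IDs fell and 3.19% rose, and the median member difference was -0.05. Without obese vehicle replicate 7, 40 members fell, and without MK-8722 10 mpk replicate 5, 42. With relative depth as a term 32 fell, or 17.3%, beside 5.08% of all IDs. With only these groups in the fit 20 fell, or 10.9%, beside 2.98%. Relative depth was 0.865 ± 0.128 at 10 mpk and 0.724 ± 0.0812 in obese vehicle medulla (SD, n = 5).

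The member with the largest fall in medulla was ENSRNOG00000014448. Its values were 13.5, 15.6, 14.2, 12.3 and 11.1 FPKM in obese vehicle and 6.22, 2.57, 6.13, 11.2 and 4.55 FPKM at MK-8722 10 mpk, for a log2 difference of -1.19 (SE 0.25, adjusted p = 0.0043, limma). Of the 5 libraries at 10 mpk, 4 lay below every obese vehicle value and 1, at 11.2 FPKM, overlapped the lowest of them. The call held in each of the 16 alternatives, with adjusted p from 0.0011 to 0.0464. In lean medulla the mean was 6.59 ± 1.58 FPKM, near that of the 10 mpk group at 6.13 ± 3.20 (SD, n = 5).

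ENSRNOG00000020792 had the next largest fall among the members named. It was measured at 1.59, 2.18, 2.31, 1.33 and 1.78 FPKM in obese vehicle medulla and at 0.302, 1.45, 0.782, 0.259 and 0.969 FPKM at 10 mpk, a log2 difference of -0.98 (SE 0.211, adjusted p = 0.00462, limma). One library at 10 mpk, at 1.45 FPKM, overlapped the obese vehicle range. The call was lost in 1 of the 16 alternatives, with only the compared groups in the fit (adjusted p = 0.0563; range over the alternatives 0.00138 to 0.0563). In lean medulla this ID was lower still, at 0.268 ± 0.141 FPKM (SD, n = 5).

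The wide-gap cortex ID ENSRNOG00000005542 also fell in medulla. Obese vehicle gave 2.19, 3.13, 1.85, 3.41 and 3.66 FPKM and 10 mpk gave 1.51, 1.23, 1.67, 1.22 and 1.93 FPKM, a log2 difference of -0.71 (SE 0.157, adjusted p = 0.0051, limma). The highest value at 10 mpk, 1.93 FPKM, was above the lowest in obese vehicle, 1.85 FPKM. With only these groups in the fit the adjusted p was 0.0532, the highest over the 16 alternatives, which began at 0.00163. The other wide-gap ID, ENSRNOG00000001973, had a mean of 0.600 FPKM in obese vehicle medulla and 0.193 FPKM at 10 mpk and was too low to be tested there.

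Counted without a test, all 5 values at 10 mpk lay below all 5 obese vehicle values in 50 of the 189 members in medulla, or 26.5%, beside 8.62% of all IDs, and above them in 0, beside 0.811%. They lay below all 5 enalapril values in 26, or 13.8%, beside 1.67%, and below all 5 values at 1 mpk in 12, or 6.35%, beside 4.06%.

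At the lower dose no member was called in medulla. Against obese vehicle, 0 of 185 passed for MK-8722 1 mpk (limma), 14 had an unadjusted p under 0.05, and 0% of all IDs passed. The median member difference was -0.09, beside -0.05 over all IDs. Of the members 162 of 185 were below 0, as were 69.2% of all IDs with the level minimum. Between the doses, 21 members were lower at 10 mpk than at 1 mpk, or 11.4%, and 0 were higher, beside 4.9% and 1.02% of all IDs. The median difference between doses was -0.15 for members and -0.13 for all IDs.

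The count between doses was unstable. After rescaling 1 member was lower and 0 were higher, where 1.13% of all IDs were lower and 1.76% higher, with only the compared groups in the fit 0 passed (48 at an unadjusted p under 0.05), and with relative depth as a term 10 passed, or 5.41%, beside 2.44% of all IDs lower. Leaving out 1 mpk replicate 4, 6 or 7 gave 9, 4 and 5 calls, leaving out 10 mpk replicate 1, 3 or 5 gave 6, 9 and 2, and leaving out 10 mpk replicate 6 gave 34. ENSRNOG00000020467 was measured at 34.4, 33.4, 32.0, 26.6 and 23.8 FPKM at 1 mpk and at 12.9, 20.2, 19.7, 14.7 and 24.2 FPKM at 10 mpk, a log2 difference of -0.72 (SE 0.159, adjusted p = 0.0147, limma). One value at 10 mpk overlapped the 1 mpk group. The call was lost in 3 of the 16 alternatives, among them the fit of only the compared groups (adjusted p = 0.0740) and the fit without 10 mpk replicate 5 (adjusted p = 0.0537), and the adjusted p over the 16 alternatives ran from 0.00403 to 0.0904.

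A further medulla comparison set the higher dose of MK-8722 against enalapril. At MK-8722 10 mpk 44 of 185 were lower than under enalapril, or 23.8%, and 0 were higher, while 1.92% of all IDs were lower and 0.817% higher. The median difference was -0.23 for members and -0.05 for all IDs, and after rescaling it was -0.19 and 0.00. After rescaling 17 members were lower, or 9.19%, and 0 higher, where 0.729% of all IDs were lower and 1.27% higher. Both treatments were given at 10 mpk, and this comparison shares the 10 mpk libraries with the comparison against obese vehicle.

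This count also leaned on single libraries. It was 17 without enalapril replicate 7, 21 without replicate 6 and 16 without replicate 5, and it fell to 13 when MK-8722 10 mpk replicate 2 was left out and to 17 when replicate 3 was. With only these groups in the fit it was 4, or 2.19%, beside 0.240% of all IDs lower. ENSRNOG00000014481 gave 9.30, 3.57, 8.33, 11.5 and 10.4 FPKM under enalapril and 4.79, 1.00, 2.28, 6.75 and 1.44 FPKM at 10 mpk, a log2 difference of -1.44 (SE 0.36, adjusted p = 0.0305, limma). The enalapril value of 3.57 FPKM lay within the range at 10 mpk. The call of this ID against enalapril was lost in 10 of the 16 alternatives, rescaling (adjusted p = 0.0594) and the fit of only these groups (adjusted p = 0.199) among them, and the adjusted p ran from 0.00585 to 0.199. In obese vehicle medulla its mean was 4.42 FPKM, beside 8.62 under enalapril and 3.25 at 10 mpk. Against obese vehicle the 10 mpk group was not called (log2 difference -0.62, adjusted p = 0.211, limma), nor was enalapril (0.82, adjusted p = 0.127, limma).

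Few members passed the threshold for enalapril itself in medulla. Against obese vehicle 1 member rose, where 1.57% of all IDs did, and 5 members fell, or 2.70%, where 9.06% of all IDs did. After rescaling 6 rose and 0 fell, where 2.32% of all IDs rose and 1.73% fell, so the split depended on the scale. The median member difference was 0.01 on the deposited values and 0.15 after rescaling, beside -0.14 and -0.01 over all IDs. At MK-8722 10 mpk the members' median difference from obese vehicle after rescaling was -0.05. The member that rose was ENSRNOG00000060061, at 3.04 ± 0.836 FPKM under enalapril and 1.85 ± 0.476 in obese vehicle (SD, n = 5), a log2 difference of 0.58 (adjusted p = 0.0483, limma). ENSRNOG00000022686 fell, with a log2 difference of -0.50 (adjusted p = 0.0349, limma). The first of these calls was lost in 12 of the 16 alternatives and the second in 10. The count ranged from 0 to 18 when single libraries were left out, with 18 without enalapril replicate 3, 11 without obese vehicle replicate 5, 1 without enalapril replicate 7, and 0 when replicate 2 or replicate 5 of enalapril, or replicate 4, 6 or 7 of obese vehicle, was left out.

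Many members differed between obese and lean medulla, in both directions. In obese vehicle 87 of 185 were higher than in lean vehicle, or 47.0%, and 29 were lower, or 15.7%, where 56.8% of all IDs were higher and 10.9% lower. After rescaling the split turned to 21 higher and 93 lower, or 11.4% and 50.3%, beside 26% and 27.9% of all IDs. The median member difference was 0.18 on the deposited values and -0.22 after rescaling, and over all IDs it was 0.37 and -0.01. On both scales the members' median lay below that of all IDs. Relative depth was 1.12 ± 0.0769 in lean and 0.724 ± 0.0812 in obese vehicle medulla (SD, n = 5), which moves with the contrast. With depth as a term 44 were higher, or 23.8%, beside 32.6% of all IDs. In that fit 2 were lower, or 1.08%, beside 5.81% of all IDs, so the share of lower members, above that of all IDs in the deposited values, was below it.

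ENSRNOG00000015416 rose with obesity in medulla, from 6.45, 5.24, 5.14, 5.04 and 8.65 FPKM in lean to 17.3, 17.4, 16.0, 20.8 and 24.3 FPKM in obese vehicle, a log2 difference of 1.59 (adjusted p = 5.79e-10, limma). At MK-8722 10 mpk it was measured at 13.4, 11.6, 9.29, 10.8 and 14.3 FPKM, between both groups and overlapping neither. ENSRNOG00000032246 fell with obesity, from 89.0 ± 12.9 FPKM in lean to 22.8 ± 3.59 in obese vehicle (SD, n = 5), a log2 difference of -1.94 (SE 0.404, adjusted p = 0.000239, limma). With relative depth as a term the adjusted p of this fall was 0.0789, the highest over the 16 alternatives, and the lowest was 1.98e-08. At 10 mpk its medulla values ran from 6.65 to 63.2 FPKM, a spread that covered all 5 obese vehicle values.

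**Figure D5:**
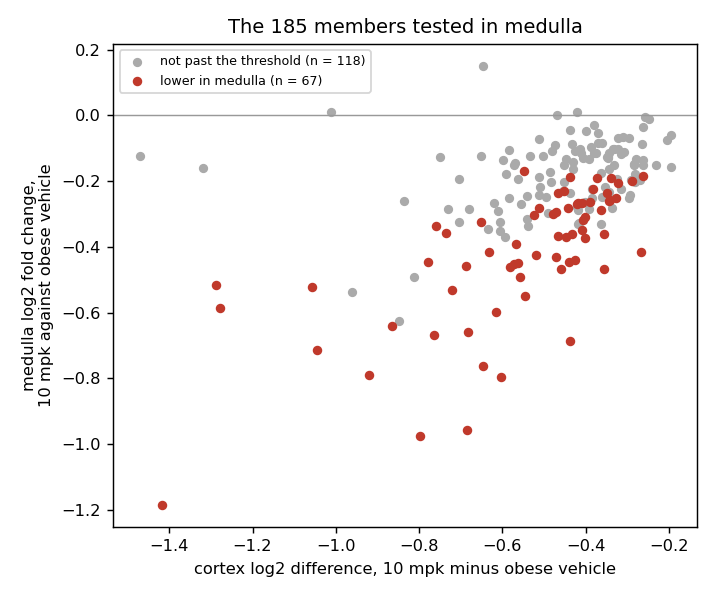
Log2 difference of MK-8722 10 mpk from obese vehicle in cortex (horizontal axis, used to choose the members) and in medulla (vertical axis), 1 point per member tested in medulla, with called members marked. All points lie left of 0 in cortex by construction, and 181 of 185 lie below 0 in medulla. There the median over all IDs was -0.18, and 82.7% of all IDs with the level minimum were below 0.

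Most members that differed between the tissues of lean rats were higher in cortex. In the lean libraries, none of which the rule used, 92 of 189 were higher in cortex than in medulla, or 48.7%, and 20 were lower, or 10.6%, where 11.5% of all 14586 IDs tested were higher and 28.4% lower (limma). Among IDs that share the members' level minimum in cortex the shares were 12.3% and 28.5%. The median difference was 0.20 for members and -0.14 for all IDs. After rescaling 117 were higher and 9 lower, or 61.9% and 4.76%, beside 19.2% and 19.7% of all IDs. These fits took their spread from all 50 libraries, the obese cortex libraries of the rule among them. With only the 2 lean groups in the fit, 99 of 187 members were higher and 21 lower. That is 52.9% and 11.2%, beside 15.2% and 36.2% of all IDs. Relative depth was 1.35 ± 0.0807 in lean cortex and 1.12 ± 0.0769 in lean medulla (SD, n = 5).

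ENSRNOG00000015416 showed the largest such difference, with 24.7, 26.6, 29.1, 29.3 and 27.7 FPKM in lean cortex against the lean medulla values given above, a log2 difference of 2.11 (SE 0.116, adjusted p = 3.56e-19, limma). ENSRNOG00000011231 followed, at 2.76 ± 0.514 FPKM in lean cortex and 0.437 ± 0.169 in lean medulla (SD, n = 5; log2 difference 1.80, adjusted p = 4.41e-12, limma). In the other direction, ENSRNOG00000009856 was measured at 30.8, 33.0, 27.4, 31.6 and 27.4 FPKM in lean cortex and 57.8, 56.9, 61.2, 51.0 and 49.7 FPKM in lean medulla, a log2 difference of -0.87 (SE 0.104, adjusted p = 2.40e-09, limma). The tissues did not overlap for any of these IDs.

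The 26 members that also met the rule after rescaling were also followed in medulla. There 24 of them were tested and 14 were lower at 10 mpk than in obese vehicle on the deposited values, where 16.5% of all IDs were, and 7 after rescaling, where 2.08% were. On the deposited values they had a median difference of -0.38 over the 24 and a range of -0.98 to -0.12. This subset was taken from the cortex values after they were seen, and its counts are a description.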

How the data were processed

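The authors deposited FPKM values for 32545 gene IDs in 50 libraries, per the file headers. Neither the aligner and counter nor the genome build is given in the sources used here. FPKM are not counts, so limma 3.58.1 (R 4.3.3; mean-variance trend, robust moderation) was run on log2(FPKM + 0.5), with one mean per group, over the 25 medulla libraries or, for lean cortex against lean medulla, over all 50. IDs with at least 1 FPKM in 5 libraries of a fit were tested, two-sided, with Benjamini-Hochberg adjusted p under 0.05 over all of them. Absolute depth is unknown. Low values in 5087 IDs were whole multiples of 1 read in 93.5% of 59685 values (tolerance 0.1 reads), which gave a relative depth of 0.596 to 1.52.

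Alternatives were a pseudocount of 0.1, no filter, rescaling by median ratio, only the compared groups, the replicate number as a block, relative depth as a term, other level minimums, leaving out the cortex libraries of the higher number range and leaving out each library. The test was checked on simulated data with known changes. The members, lists and tests were chosen with earlier results of these data known. The rule for naming IDs took the 2 members with the widest gap in cortex. The other named IDs have the largest differences in each comparison and were chosen after their values were seen.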

Additional observations from a re-analysis of the deposited data

Results flagged for a closer look

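In each group of 5 libraries, the highest and lowest values of the 16 named IDs, of the members' median log2 difference and of their share of summed FPKM were compared with their neighbours, and 8 of 180 groups held a library set apart from the other 4. Chance marks about 1 in 20 such groups. Among the IDs, ENSRNOG00000001973 stood apart in medulla at 0.548 FPKM in MK-8722 10 mpk replicate 1 and at 2.09 FPKM in enalapril replicate 6. ENSRNOG00000007060 was at 36.1 FPKM in medulla MK-8722 10 mpk replicate 6. ENSRNOG00000032246 was at 50.9 FPKM in cortex MK-8722 10 mpk replicate 2, the library that held the highest value of its group in more members than any other library did. ENSRNOG00000014481 was at 22.3 FPKM in cortex enalapril replicate 1, below the other 4 of its group. The members' share of summed FPKM stood apart at 1.65% in cortex enalapril replicate 7, at 2.17% in cortex obese vehicle replicate 2 and at 1.09% in medulla obese vehicle replicate 5.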

How the results depend on the processing

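The number of IDs that met the cortex rule was 189, and it became 40 after rescaling, 586 without the 8 cortex libraries of the higher number range, and 189 to 450 with 1 library left out. Medulla counts of called members moved as follows. For MK-8722 10 mpk against obese vehicle, 67 became 12 after rescaling, 20 with only the compared groups, 32 with relative depth as a term, and 40 to 80 with 1 library left out. For 10 mpk against 1 mpk, 21 became 9 with no filter on low values, 1 after rescaling, 0 with only the compared groups, 10 with depth as a term, and 2 to 34 with 1 library left out. For 10 mpk against enalapril, 44 became 17 after rescaling, 4 with only the compared groups, and 13 to 65 with 1 library left out. For obese against lean vehicle, 116 became 46 with depth as a term. Rescaling gave a total of 114 but turned 87 higher and 29 lower into 21 and 93, and 50 of the 116 calls were kept. For enalapril against obese vehicle, 6 became 1 with no filter or with only the compared groups, and 0 to 18 with 1 library left out. Same-numbered libraries did not deviate together in every pair of any comparison (r of -0.0784 to 0.152 for 10 mpk against obese vehicle), so the numbers were not taken as a pairing. With the replicate block the counts were 38 for 10 mpk against obese vehicle, 1 against 1 mpk, 29 against enalapril, 2 for enalapril against obese vehicle and 108 for obese against lean vehicle. The count of 0 for 1 mpk against obese vehicle, and the total of members that differed between lean cortex and medulla, stayed within 1.5 times in each alternative, but the members lower in lean cortex went from 20 to 9 after rescaling. Of 23 results for named IDs, 10 stayed past the threshold in each alternative, 13 lost it in at least 1, and none changed sign. Relative depth limits the precision of low IDs.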
